A study of Mus musculus with 8 samples.

Results

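Thymic stromal lymphopoietin, encoded by Tslp, and the chains of its receptor, encoded by Crlf2 and Il7r, were taken by gene symbol from 54232 gene identifiers, and all 3 genes were found. Total RNA had been sequenced from epidermis scraped off the back skin of female mice, all on an F1 background of C57Bl and 129. REDD1, which Ddit4 encodes, restrains the growth kinase complex mTORC1 when cells are stressed, and the mice were REDD1 Knockout (KO) or Wildtype (WT). The 8 libraries fell into 6 groups: KO and WT skin given the glucocorticoid fluocinolone acetonide (FA, 2 ug) 1 h before the phorbol ester TPA (4 ug), with 1 library each; KO and WT skin given TPA, with 1 library each; and KO and WT skin given the acetone vehicle (200 ul), with 2 libraries each. All skin was shaved, and it was taken 24 h after TPA. The age of the mice, whether a library was 1 mouse or a pool, and how the knockout was made are not given in the labels.

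TSLP is a cytokine that epithelial cells, among them keratinocytes, release after irritation or damage of the barrier. It binds the TSLP-specific chain encoded by Crlf2 together with the interleukin-7 receptor alpha chain encoded by Il7r, and signals through JAK1, JAK2 and STAT5. The alpha chain also pairs with the common gamma chain, encoded by Il2rg, to form the receptor of interleukin-7. In mouse skin TSLP is known for its part in type 2, allergic inflammation, in which it acts on dendritic cells, T cells, innate lymphoid cells, mast cells and basophils, and topical vitamin D analogues are known to induce Tslp in mouse keratinocytes.

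In mm10 coordinates, Crlf2 (ENSMUSG00000033467) lies on the minus strand of chromosome 5 from 109554709 to 109558993, and Il7r (ENSMUSG00000003882) on the minus strand of chromosome 15 from 9505788 to 9530176. Neither overlaps another annotated gene.

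Stretches at the starts of the receptor genes are shown because the pair, whose products form 1 receptor, differed in base composition there. They were taken from RefSeq on GRCm38.p6 and run 5′ to 3′ on the gene's strand, and only bases outside the RefSeq transcripts of the gene and outside all GENCODE exons are printed. Crlf2 is read from chr5:109559129-109559243, upstream of the annotated gene, and Il7r from chr15:9529942-9530040, both on the minus strand. The Il7r stretch lies upstream of its RefSeq transcripts but inside the annotated gene, in an intron of a GENCODE transcript that starts further upstream, at 9530176. Capitals mark a match to the STAT motif TTCNNNGAA.
Crlf2: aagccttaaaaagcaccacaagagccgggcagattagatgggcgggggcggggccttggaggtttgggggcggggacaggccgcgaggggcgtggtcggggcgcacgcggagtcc
Il7r: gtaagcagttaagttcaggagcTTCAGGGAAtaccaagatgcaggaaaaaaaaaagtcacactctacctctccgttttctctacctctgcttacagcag

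The printed stretches held 69.6% G and C and 11 CpG dinucleotides in the 115 bases of Crlf2, and 43.4% G and C and 1 CpG in the 99 bases of Il7r. In the 250 bases before the start that RefSeq takes for its promoter window, Crlf2 had 71.6% G and C and 24 CpG, whereas Il7r had 44.0% G and C and 1 CpG. These windows also hold bases of other transcripts of the same genes, and 115 bases in Crlf2 and 185 in Il7r lay beyond all RefSeq transcripts. The median of 32851 RefSeq promoters was 52.4% G and C and 6 CpG, so the receptor genes lay on opposite sides of it. The windows were searched on both strands for the AP-1 motif TGANTCA, the STAT motif TTCNNNGAA, the glucocorticoid receptor half-site AGAACA and the NF-kB consensus. Il7r held the single STAT match printed above, which starts at -142 from the RefSeq start, and Crlf2 held none of the 4 motifs. Over all promoters, 6.75% held the AP-1 motif, 7.02% the STAT motif, 16.1% the half-site and 7.25% the NF-kB consensus. A match is a description of letters and not of a bound site.

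Levels are given as CPM, read counts scaled to library size and normalised by the trimmed mean of M values (TMM), and brackets give exact Poisson 95% intervals that cover counting error only. Library totals ran between 16874233 and 22560098 counts, and a floor of 3 counts was between 0.133 and 0.178 CPM. Genes were tested with edgeR's quasi-likelihood F test on all 19251 genes that passed a low-count filter, all 3 members among them, with Benjamini-Hochberg adjustment at 0.05. Treatments were compared over both genotypes, because no treated group had a second library, and a p-value here reflects only how far these samples spread, which can be technical in origin. Ddit4 had 7.25 CPM in the KO and 90.3 CPM in the WT library given FA+TPA, 4.44 CPM in KO and 64.2 CPM in WT skin given TPA, and 18.8 and 18.6 CPM in KO against 128.1 and 116.9 CPM in WT vehicle skin. It was lower in every KO library than in every WT library, by a log2 fold change of -3.16 ± 0.18 (SE, edgeR adjusted p = 1.20e-05). All 9 keratinocyte markers, among them Krt5 and Krt14, were detected in every library, and their summed level was between 17379 and 33250 CPM. Gm26917, an abundant noncoding transcript, took 16.8% to 24.2% of the counts in the treated libraries and 8.34% to 13.8% in the vehicle libraries.

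Tslp, the ligand, was the member that moved most: it rose under TPA in both genotypes, and was lower, but still above vehicle, where FA had been given first. It had 4.41 CPM (3.46 to 5.54) in the KO and 2.93 CPM (2.14 to 3.90) in the WT library given FA+TPA. The TPA libraries had 10.4 CPM (9.12 to 11.8) in KO and 7.27 CPM (6.02 to 8.71) in WT skin. In vehicle skin it had 0.985 and 0.681 CPM in KO and 0.735 and 0.362 CPM in WT skin, from 21, 15, 13 and 7 counts. The treatments did not overlap, the highest vehicle library lying below the lowest FA+TPA library and the highest FA+TPA library below the lowest TPA library. The order of the levels was KO TPA, WT TPA, KO FA+TPA, WT FA+TPA and then the vehicle libraries. Of the neighbours in that order, the FA+TPA libraries of KO and WT skin overlapped in their counting intervals, as did the vehicle libraries, while those of the TPA libraries did not overlap.

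Tslp (ENSMUSG00000024379) lies on the plus strand of chromosome 18 of mm10 from 32815383 to 32819797, where it overlaps the antisense gene 4930455D15Rik. Without a stated strand setting the reads of the pair cannot be told apart, and the antisense gene had 0 to 3 counts per library, against 7 to 232 for Tslp.

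**Figure D1:**
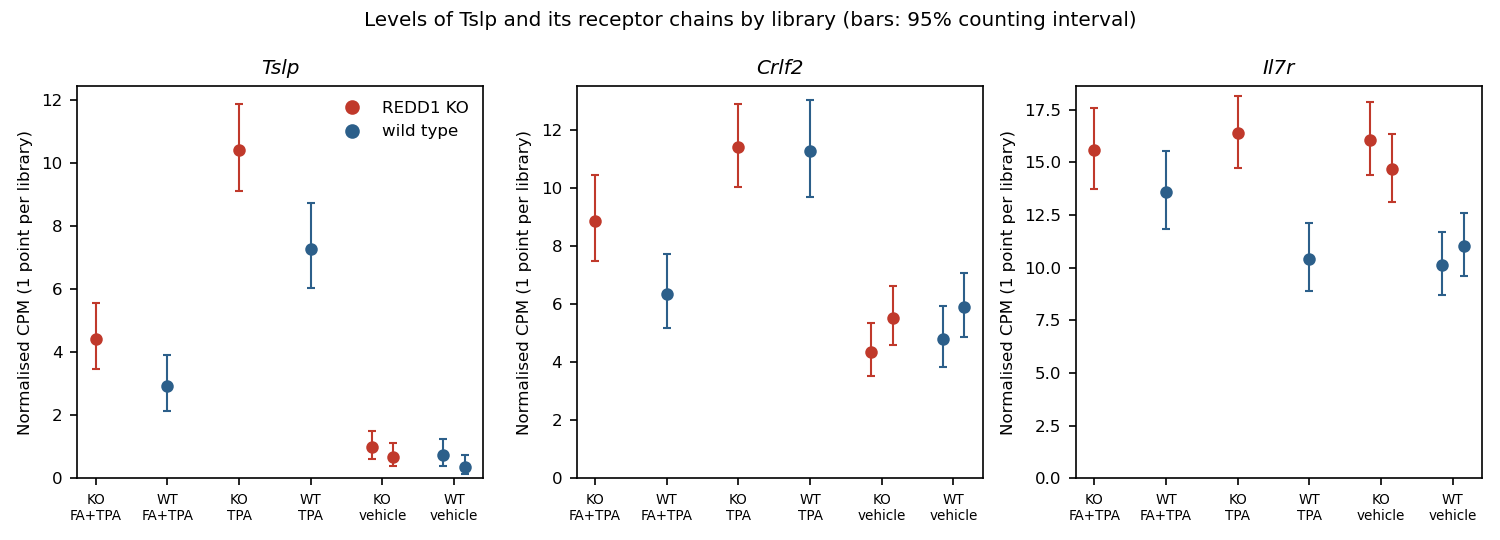
Levels of Tslp, Crlf2 and Il7r in normalised CPM (vertical axes) by group (horizontal axes). Each point is 1 library, and bars are exact Poisson 95% intervals. Tslp lies at 10.4 and 7.27 CPM under TPA and below 1 CPM in all 4 vehicle libraries, whereas Il7r separates KO from WT libraries and not treatments.

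With TPA set against vehicle, Tslp rose by a log2 fold change of 3.68 ± 0.23 (SE, edgeR adjusted p = 9.22e-07), and its fold change stood at the 98.9th percentile of all genes tested. By genotype, the TPA library was 12.5 times the vehicle mean in KO skin and 13.3 times in WT skin. TPA moved a large part of the transcriptome, with 46.0% of genes called and 23.2% higher, and 2 of the 3 members were among those higher. Tslp fell, with FA+TPA set against TPA, by 1.27 ± 0.24 on the log2 scale (edgeR adjusted p = 0.00772), where 10% of genes were called, with 5.71% higher and 4.31% lower, and the other members were not called. The FA+TPA library was 0.423 times the TPA library in KO and 0.402 times in WT skin. This call rests on all 4 treated libraries: without any 1 of them the difference lay between -1.35 and -1.23 with adjusted p between 0.0562 and 0.0934.

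Tslp stayed above its vehicle level where FA had been given. With FA+TPA set against vehicle, it was higher by 2.40 ± 0.26 on the log2 scale (edgeR adjusted p = 7.28e-05), in a comparison in which 31.6% of genes were called and 17.4% were higher. The FA+TPA library was 5.29 times the vehicle mean in KO and 5.34 times in WT skin. Of the difference between TPA and vehicle in CPM, 37.3% was left under FA+TPA in KO and 35.4% in WT skin.

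KO exceeded WT in Tslp under each treatment, but the difference did not pass the test. The ratio of KO to WT was 1.51 under FA+TPA, 1.43 under TPA and 1.52 in vehicle skin, where the KO and WT libraries overlapped. Over all treatments the log2 difference was 0.57 ± 0.20 (edgeR adjusted p = 0.195), and in vehicle skin alone it was 0.61 ± 0.44 (edgeR adjusted p = 0.731), or between 0.18 without WT vehicle 2 and 1.18 without WT vehicle 1. The interaction of genotype with TPA, the log2 response of KO minus that of WT, was -0.09 ± 0.54 (edgeR adjusted p = 1.00). The interaction with FA was 0.07 ± 0.54 (edgeR adjusted p = 1.00). These standard errors leave room for responses that differ by over 1.5 times between the genotypes, and the single treated libraries were assumed to vary like the vehicle pairs.

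Crlf2, the TSLP-specific chain of the receptor, also rose under TPA, by less than its ligand. It had 8.88 CPM (7.50 to 10.4) in the KO and 6.36 CPM (5.18 to 7.74) in the WT library given FA+TPA, and 11.4 CPM (10.04 to 12.9) in the KO and 11.3 CPM (9.70 to 13.0) in the WT library given TPA. Vehicle skin had 4.36 and 5.54 CPM in KO and 4.80 and 5.90 CPM in WT skin. Both TPA libraries stood above all others, and the WT FA+TPA library stood close to the upper vehicle libraries, with overlapping counting intervals. In the order of levels, KO TPA, WT TPA, KO FA+TPA, WT FA+TPA and then the vehicle libraries, each library's interval overlapped that of the next. In bulk epidermis, a change in the number of cells that express a gene and a change in its RNA per cell cannot be told apart.

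The log2 fold change of Crlf2 under TPA was 1.14 ± 0.18 (SE, edgeR adjusted p = 0.000388), at the 92.1st percentile of all genes tested. The TPA library was 2.30 times the vehicle mean in KO and 2.11 times in WT skin. For FA+TPA against TPA the difference was -0.58 ± 0.21 on the log2 scale (edgeR adjusted p = 0.116) and was not called; it was -0.89 without the KO FA+TPA library and -0.34 without the WT FA+TPA library. The FA+TPA library was 0.779 times the TPA library in KO and 0.564 times in WT skin. Under FA+TPA Crlf2 was higher than in vehicle skin by 0.56 ± 0.18 (edgeR adjusted p = 0.0401), at 1.79 times the vehicle mean in KO and 1.19 times in WT skin. That call was lost with DESeq2 (adjusted p = 0.0675) and without any 1 of 5 libraries, namely KO TPA, KO vehicle 1 or 2, WT vehicle 1 and KO FA+TPA, without which the difference was 0.27 (adjusted p = 0.518).

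KO and WT did not differ detectably in Crlf2. The ratio of KO to WT was 1.40 under FA+TPA, 1.01 under TPA and 0.925 in vehicle skin. Over all treatments the log2 difference was 0.07 ± 0.15 (edgeR adjusted p = 0.895), and in vehicle skin it was -0.11 ± 0.22 (edgeR adjusted p = 0.939). The interaction with TPA was 0.13 ± 0.36 and that with FA was 0.46 ± 0.42 (edgeR adjusted p = 1.00 for both).

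Il7r, the chain that TSLP and interleukin-7 share, was not called in any treatment comparison and differed by genotype instead. It had 15.6 CPM (13.7 to 17.6) in the KO and 13.6 CPM (11.9 to 15.6) in the WT library given FA+TPA. It had 16.4 CPM (14.7 to 18.2) in the KO and 10.4 CPM (8.91 to 12.1) in the WT library given TPA. In vehicle skin it had 16.1 and 14.7 CPM in KO and 10.1 and 11.0 CPM in WT skin. Every KO library lay above every WT library, with the lowest KO library at 14.7 CPM and the highest WT library, the one given FA+TPA, at 13.6 CPM, and the counting intervals of these last libraries overlapped, as did those of all other neighbours in the order of levels.

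Over all treatments, Il7r was higher in KO by 0.48 ± 0.11 on the log2 scale (SE, edgeR adjusted p = 0.0383), where 3.58% of genes were called and 1.98% were higher, and it was the 1 member of 3 called. The ratio of KO to WT was 1.14 under FA+TPA, 1.57 under TPA and 1.45 in vehicle skin. In vehicle skin alone the difference was 0.54 ± 0.16 (edgeR adjusted p = 0.150), where 2.17% of genes were called and 1.44% were higher; 0 of 3 members passed with edgeR or with DESeq2, and Il7r was the 1 with an unadjusted p under 0.05. The call over all treatments was near the threshold: it was lost with 1 mean per group (0.46, adjusted p = 0.0884) and in 7 of 8 fits that left out 1 library, all but the fit without the WT FA+TPA library, while the difference stayed between 0.42 and 0.58.

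None of the treatment differences of Il7r passed the test. The log2 difference was 0.04 ± 0.13 for TPA against vehicle (edgeR adjusted p = 0.819), 0.15 ± 0.15 for FA+TPA against TPA (edgeR adjusted p = 0.624) and 0.19 ± 0.13 for FA+TPA against vehicle (edgeR adjusted p = 0.304). The first and the last of these turned to -0.18 and -0.025 with library size as the sole scaling. The interactions were 0.11 ± 0.28 with TPA and -0.46 ± 0.32 with FA (edgeR adjusted p = 1.00 for both). For both interactions, 0 of 3 members passed with edgeR, with DESeq2 or at an unadjusted p under 0.05, where 0.00519% of genes were called for TPA and 0% for FA.

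**Figure D2:**
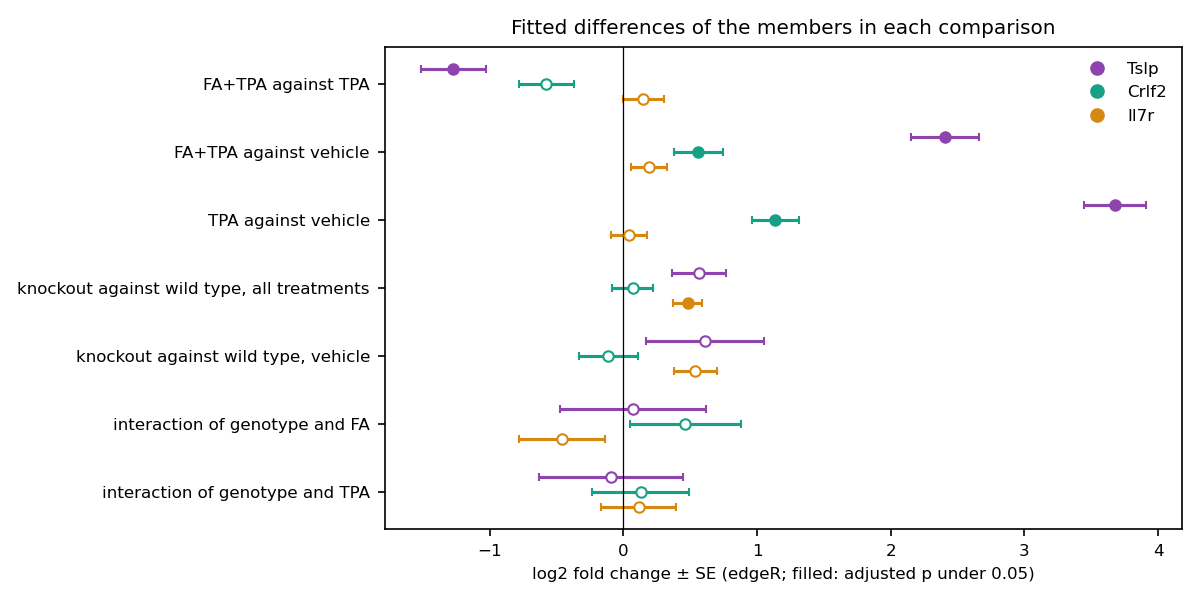
Fitted log2 differences of Tslp, Crlf2 and Il7r (horizontal axis) in each of the 7 comparisons (vertical axis), the last of which are interactions of genotype and treatment; bars are 1 standard error. Tslp stands at 3.68 for TPA against vehicle and at -1.27 for FA+TPA against TPA. For KO against WT over all treatments and in vehicle skin, Tslp stands at 0.57 and 0.61 and Il7r at 0.48 and 0.54. Of these, only Il7r over all treatments was called.

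Per exon length, in RPKM, the balance of the receptor chains leaned further toward Crlf2 under TPA. The level of the ratio depends on the exon lengths used, 1495 bases for Crlf2 and 4663 bases for Il7r over all annotated transcripts. The ratio of Crlf2 to Il7r in RPKM was 1.78 in the KO and 1.46 in the WT library given FA+TPA, and 2.17 in KO and 3.38 in WT skin given TPA. In vehicle skin this ratio was 0.846 and 1.18 in KO and 1.48 and 1.67 in WT skin. Under each treatment but FA+TPA the KO ratio was the lower, and the TPA libraries were above all others. The ligand was scarce beside its specific chain in vehicle skin: the ratio of Tslp to Crlf2 in RPKM was 0.558 in KO and 0.517 in WT skin under FA+TPA, 1.03 in KO and 0.724 in WT skin under TPA, and 0.254 and 0.138 in KO and 0.172 and 0.0690 in WT vehicle skin.

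Il7, which encodes the other ligand of the Il7r chain, was measured as a comparison for Tslp. It had 1.81 CPM in the KO and 1.08 CPM in the WT library given FA+TPA, 1.17 CPM in KO and 1.60 CPM in WT skin given TPA, and 3.52 and 3.04 CPM in KO and 1.30 and 2.38 CPM in WT vehicle skin. Its difference for TPA against vehicle was -0.87 ± 0.35 on the log2 scale and did not pass (edgeR adjusted p = 0.0632). The ratio of Tslp to Il7 in RPKM was 10.4 in KO and 11.5 in WT skin under FA+TPA, 38.0 in KO and 19.3 in WT skin under TPA, and between 0.648 and 2.41 in the vehicle libraries. Tslp was thus the more abundant of these ligands per length in all 4 treated libraries, and the order varied among the vehicle libraries.

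**Figure D3:**
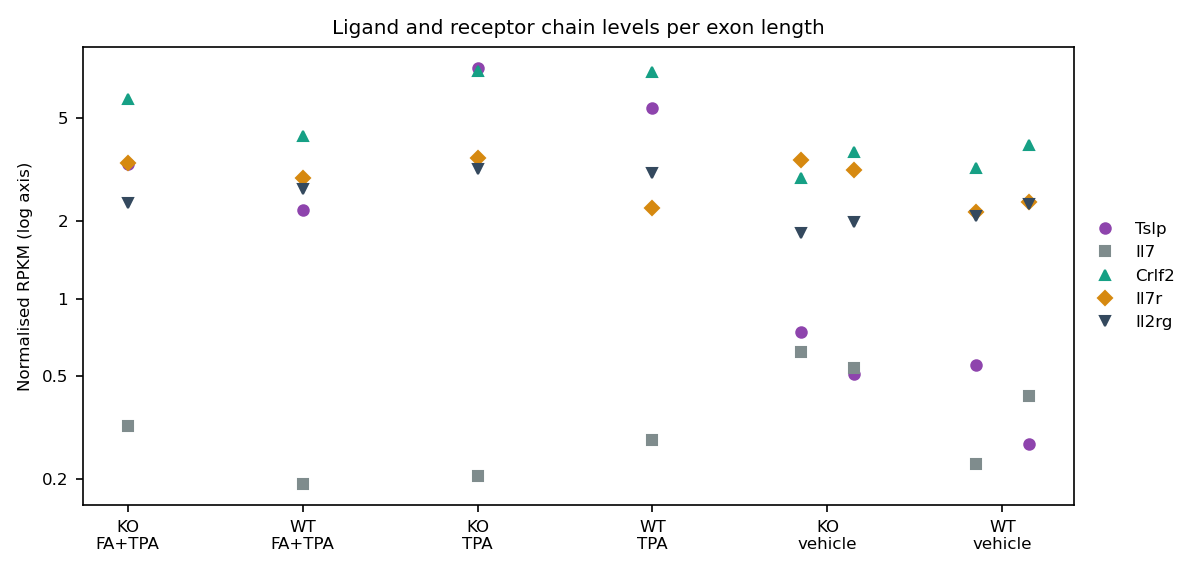
Normalised RPKM, which divides by exon length, on a log axis (vertical) by group (horizontal) for the ligands Tslp and Il7 and the receptor chains Crlf2, Il7r and Il2rg; each point is 1 library. Tslp comes up to the level of Crlf2 under TPA, with a ratio of 1.03 in the KO library, and lies at 0.0690 to 0.254 of it in vehicle skin.

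Among the other genes of the pathway, 75 were listed and 68 passed the low-count filter. Under TPA, 35 were higher and 12 lower, beside 23.2% of all genes higher and 22.8% lower, with a median log2 fold change of 0.37, against -0.03 for all genes. With library size as the sole scaling the split was 23 higher and 21 lower; that scaling also moved the median of all genes to -0.25, and no called pathway gene changed its direction. Between FA+TPA and TPA, 4 were higher and 20 lower under FA+TPA, beside 5.71% and 4.31% of all genes, with a median of -0.24, against 0.01 for all genes. Without either FA+TPA library the number called was 9, and without the WT TPA library it was 15. With FA+TPA set against vehicle, 16 were higher and 14 lower, beside 17.4% and 14.2% of all genes, and 10 and 22 with library size as the sole scaling. Without either FA+TPA library the number called in that comparison was 18.

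Of the 5 chains and ligands related to the TSLP receptor, 1 rose and 2 fell under TPA, in a comparison in which 23.2% of all genes were higher and 22.8% lower. The 1 that rose was Il2rg, the common gamma chain, at 0.62 ± 0.15 (edgeR adjusted p = 0.00691). Both Il15, a cytokine that keeps epidermal T cells alive, at -1.37 ± 0.16, and Il2rb, a chain of its receptor, at -0.48 ± 0.14, fell (edgeR adjusted p = 5.55e-05 and 0.0193). With FA+TPA set against TPA, Il2rg differed by -0.32 ± 0.18 (edgeR adjusted p = 0.322). Under FA+TPA, against vehicle, 3 of 5 were lower, Il15, Il2rb and the Il15 receptor chain Il15ra, beside 14.2% of all genes.

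Of the 9 kinases and STATs, which carry the signal from cytokine receptors to the nucleus, 5 rose and 1 fell under TPA, beside 23.2% and 22.8% of all genes. In FA+TPA against TPA, 5 fell and none rose, beside 4.31% and 5.71% of all genes. Stat5a, one of the STAT5 genes, had 24.5 CPM in KO and 23.0 CPM in WT skin under FA+TPA, 38.0 CPM in KO and 45.9 CPM in WT skin under TPA, and between 26.9 and 33.6 CPM in vehicle skin. It rose by 0.46 ± 0.10 under TPA and fell by 0.81 ± 0.12 with FA+TPA set against TPA (edgeR adjusted p = 0.00405 and 0.00222), and the FA+TPA libraries lay below all vehicle libraries. Stat5b, the other STAT5 gene, fell under TPA by 0.37 ± 0.10 (edgeR adjusted p = 0.0101). Jak2, the kinase that binds the Crlf2 chain, rose by 0.48 ± 0.11 under TPA and fell by 0.58 ± 0.13 with FA+TPA set against TPA (edgeR adjusted p = 0.00408 and 0.0154). Jak1, the kinase of the Il7r chain, differed by -0.02 ± 0.10 and -0.17 ± 0.11 in these comparisons and was not called. Stat3, which many cytokines activate, had the smallest p of the list under TPA, at 1.20 ± 0.09, and fell by 0.88 ± 0.10 with FA+TPA set against TPA.

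Of 6 genes of inhibitors of cytokine signalling, 3 rose and 1 fell under TPA, and 3 fell and none rose with FA+TPA set against TPA, with the same shares of all genes. Socs1 had 6.04 CPM in KO and 3.05 CPM in WT skin under FA+TPA, 14.8 CPM in KO and 14.5 CPM in WT skin under TPA, and 5.49 and 3.99 CPM in KO and 4.63 and 5.02 CPM in WT vehicle skin. It rose by 1.62 ± 0.21 under TPA and fell by 1.70 ± 0.26 with FA+TPA set against TPA (edgeR adjusted p = 0.000108 and 0.00221), and the FA+TPA libraries straddled the vehicle level. Socs3 rose by 1.06 ± 0.16 and fell by 1.21 ± 0.20, and Cish, a known STAT5 target, rose by 0.77 ± 0.10 and fell by 0.53 ± 0.12 in these comparisons (edgeR adjusted p = 0.0179 for the last). Ptpn6, a phosphatase of blood cells, fell by 0.98 ± 0.14 under TPA.

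Genes that TSLP is known to induce in dendritic cells were mostly higher under TPA, with 6 of 7 up and 1 down, beside 23.2% and 22.8% of all genes. With FA+TPA set against TPA, 2 of 7 were lower and none higher, beside 4.31% and 5.71% of all genes. Ccl22, a chemokine that attracts T cells of the type 2 kind, had 28.6 CPM in KO and 28.9 CPM in WT skin under FA+TPA, 48.4 CPM in KO and 41.4 CPM in WT skin under TPA, and between 4.13 and 5.18 CPM in vehicle skin. It rose by 3.28 ± 0.11 under TPA and fell by 0.64 ± 0.12 with FA+TPA set against TPA (edgeR adjusted p = 2.19e-08 and 0.00707). Ccl17, whose product shares a receptor with that of Ccl22, rose by 3.30 ± 0.53 under TPA, with 1 to 4 counts per vehicle library, and differed by 0.45 ± 0.44 with FA+TPA set against TPA (edgeR adjusted p = 0.000527 and 0.601). Ccr7, the receptor that guides dendritic cells to lymph nodes, rose by 4.04 ± 0.30 under TPA and differed by -0.34 ± 0.29 with FA+TPA set against TPA (edgeR adjusted p = 2.81e-06 and 0.540). Cd40, a costimulatory receptor, rose by 1.85 ± 0.22 and fell by 1.80 ± 0.28 (edgeR adjusted p = 7.57e-05 and 0.00268). Tnfsf4, which encodes OX40 ligand, fell by 1.43 ± 0.51 under TPA. These genes are also expressed by other cells and induced by other signals.

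Of the 23 genes known as regulators of Tslp in keratinocytes, 22 were tested, and 7 rose and 6 fell under TPA, close to the 23.2% and 22.8% of all genes. Nr3c1, the glucocorticoid receptor, had 87.6 CPM in KO and 77.7 CPM in WT skin under FA+TPA, 81.7 CPM in KO and 69.1 CPM in WT skin under TPA, and between 132 and 164 CPM in vehicle skin. It fell by 1.01 ± 0.11 under TPA (edgeR adjusted p = 2.71e-05) and differed by 0.13 ± 0.12 with FA+TPA set against TPA (edgeR adjusted p = 0.562). Vdr, the vitamin D receptor, rose by 0.37 ± 0.09 under TPA (edgeR adjusted p = 0.00695), and its partner Rxra differed by -0.13 ± 0.09 (edgeR adjusted p = 0.249). Cyp24a1, a vitamin D target, had 0 counts in all 8 libraries. The largest evidence in the list under TPA was for Tnfrsf1a, a tumour necrosis factor receptor, at 0.73 ± 0.08. With FA+TPA set against TPA 2 rose and 2 fell, beside 5.71% and 4.31% of all genes. Klk5, a protease that can lead to TSLP release, rose by 0.58 ± 0.15 and Stim1, a calcium sensor, by 0.71 ± 0.10, while Rbpj and Nfkb1 fell by 0.50 ± 0.12 and 0.42 ± 0.11.

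Of 5 other epithelial alarmins listed, 4 were tested. Under TPA 3 rose, namely Il33, Il1a and Areg, and none fell, beside 23.2% and 22.8% of all genes. With FA+TPA set against TPA 1 rose and 1 fell, beside 5.71% and 4.31% of all genes. Il33 had 35.5 CPM in KO and 30.2 CPM in WT skin under FA+TPA, 47.0 CPM in KO and 87.9 CPM in WT skin under TPA, and between 17.9 and 25.4 CPM in vehicle skin. It rose by 1.54 ± 0.21 under TPA and fell by 1.02 ± 0.25 with FA+TPA set against TPA (edgeR adjusted p = 0.000177 and 0.0292), and unlike Tslp it was higher in WT than in KO skin under TPA. Il18 differed by -0.15 ± 0.12 under TPA and rose by 1.08 ± 0.14 with FA+TPA set against TPA (edgeR adjusted p = 0.322 and 0.000816). Il25 had 0 to 5 counts per library and was not tested.

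The type 2 genes called under TPA were all receptors. Of 15 genes listed, 12 were tested. Under TPA 7 rose and 1 fell, beside 23.2% and 22.8% of all genes. With FA+TPA set against TPA 6 fell and none rose, beside 4.31% and 5.71% of all genes. Il4ra, the receptor chain of interleukins 4 and 13, had 62.2 CPM in KO and 60.7 CPM in WT skin under FA+TPA, 181 CPM in KO and 172 CPM in WT skin under TPA, and between 41.3 and 53.2 CPM in vehicle skin. It rose by 1.88 ± 0.10 under TPA and fell by 1.52 ± 0.12 with FA+TPA set against TPA (edgeR adjusted p = 2.66e-07 and 5.73e-05). Csf2rb, a receptor chain shared by several myeloid growth factors, rose by 1.88 ± 0.12 and fell by 0.66 ± 0.14, and Osmr, the oncostatin M receptor, rose by 1.23 ± 0.09 and fell by 0.98 ± 0.11 in these comparisons. Il13 had 3 to 24 counts per library and Il4 had 3 to 17, and neither was called under TPA, at 0.70 ± 0.45 and -1.18 ± 0.48 (edgeR adjusted p = 0.224 and 0.0686). Il5 was at 0 in 7 of 8 libraries and Il31 at 0 in all 8.

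Of 5 genes listed as chemoattractants of type 2 cells, 3 were tested. All 3 rose under TPA, beside 23.2% of all genes, with Ccl8 at 3.82 ± 0.50 and Ccl20 at 1.51 ± 0.36 (edgeR adjusted p = 0.000134 and 0.00555). In the comparison of FA+TPA with TPA, Ccl8 fell by 2.75 ± 0.59, whereas Ccl20, which attracts cells that carry CCR6, rose by 1.78 ± 0.35 (edgeR adjusted p = 0.0144 and 0.00904).

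Between KO and WT over all treatments, 1 of the 68 pathway genes was higher and 1 lower, near the 1.98% and 1.60% of all genes. Il31ra, the receptor of the itch cytokine interleukin-31, which pairs with Osmr, had 5.62 CPM in KO and 2.99 CPM in WT skin under FA+TPA, 13.9 CPM in KO and 7.77 CPM in WT skin under TPA, and 13.9 and 12.1 CPM in KO against 4.01 and 6.88 CPM in WT vehicle skin. It was higher in KO under every treatment, by 1.07 ± 0.17 on the log2 scale (edgeR adjusted p = 0.00795). Il1a, an alarmin of keratinocytes, was lower in KO by -0.48 ± 0.10 (edgeR adjusted p = 0.0297). In vehicle skin 1 of 68 was called, beside 2.17% of all genes, namely Il31ra, at 1.25 ± 0.25 (edgeR adjusted p = 0.0315). For both interactions 0 of 68 passed with edgeR or with DESeq2, and 3 for TPA and 1 for FA had an unadjusted p under 0.05.

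**Figure D4:**
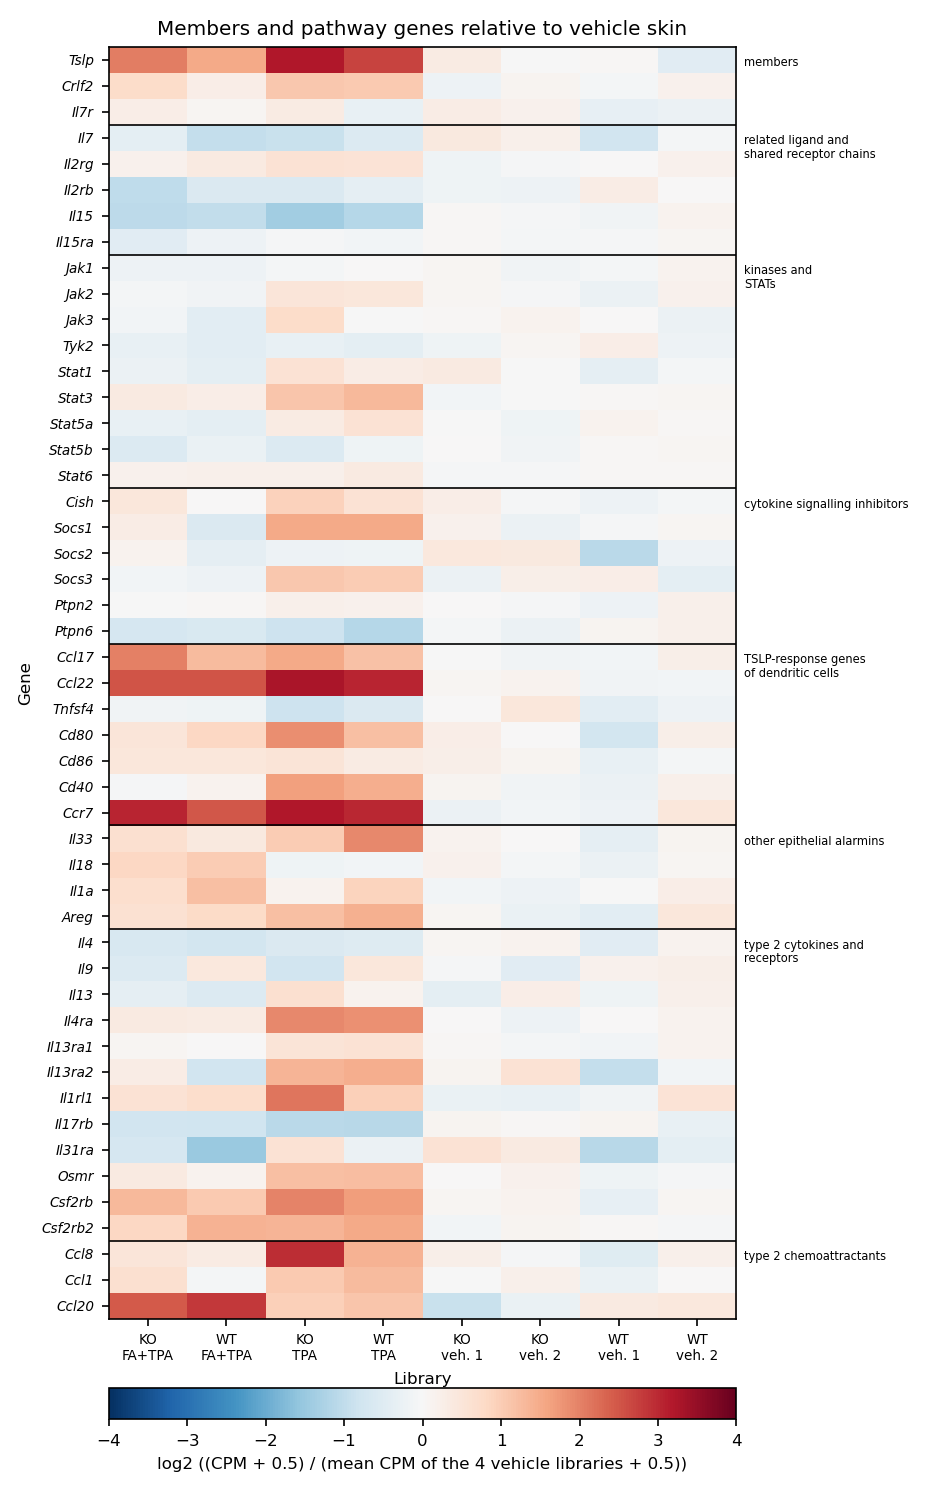
Log2 ratio of each library's CPM to the mean of the 4 vehicle libraries, with 0.5 CPM added to each (colour), for the members and the tested pathway genes other than the regulators of Tslp (rows, grouped by list) in each library (columns). Tslp, Ccl22 and Il4ra are raised in both TPA libraries, and Il4ra at 62.2 and 60.7 CPM under FA+TPA is nearer to vehicle than Ccl22 at 28.6 and 28.9 CPM.

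The cells that carry these receptors were followed through marker lists, since Il7r is expressed by T cells and innate lymphoid cells and Crlf2 by dendritic cells and others. The summed T cell markers were 77.1 CPM in KO and 71.6 CPM in WT skin under FA+TPA, 74.8 CPM in KO and 82.7 CPM in WT skin under TPA, and 97.5 and 76.8 CPM in KO against 111 and 117 CPM in WT vehicle skin. Under TPA 8 of 14 were lower and 1, Thy1, was higher, beside 22.8% and 23.2% of all genes, while Il7r differed by 0.04 ± 0.13. Trdc, the constant chain of gamma-delta T cells, fell by 2.66 ± 0.23 and Cd3e by 1.46 ± 0.15 (edgeR adjusted p = 8.10e-06 and 2.83e-05), and Thy1, which fibroblasts also express, rose by 1.10 ± 0.12.

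Between KO and WT over all treatments, 11 of 14 T cell markers were not called, and the median of the list was -0.15 on the log2 scale, against -0.01 for all genes. The 3 called were lower in KO, beside 1.60% of all genes, namely Trdc at -0.86 ± 0.17, Cd247 at -0.76 ± 0.15 and Cd3e at -0.62 ± 0.12 (edgeR adjusted p = 0.0243, 0.0224 and 0.0214). Per 100 CPM of summed T cell markers, Il7r had 20.2 CPM in KO and 19.0 CPM in WT skin under FA+TPA, 21.9 CPM in KO and 12.6 CPM in WT skin under TPA, and 16.5 and 19.1 CPM in KO against 9.08 and 9.38 CPM in WT vehicle skin. The ratio was higher in KO than in WT skin under TPA and in vehicle skin, and nearly level under FA+TPA. Of the markers of innate lymphoid cells of type 2, Klrg1 was at 0 in 6 of 8 libraries, and Gata3 and Rora, which made up most of the list's summed level of 645 to 1293 CPM, are also expressed by keratinocytes.

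The summed markers of Langerhans and dendritic cells were 656 CPM in KO and 509 CPM in WT skin under FA+TPA, 760 CPM in KO and 711 CPM in WT skin under TPA, and between 963 and 1091 CPM in vehicle skin. Under TPA 6 of 10 tested were lower and 1, Epcam, which keratinocytes also express, was higher, beside 22.8% and 23.2% of all genes, while Crlf2 rose. The summed markers of macrophages and monocytes were 168 CPM in KO and 138 CPM in WT skin under FA+TPA, 323 CPM in KO and 129 CPM in WT skin under TPA, and between 113 and 128 CPM in vehicle skin. Of these markers 7 of 10 tested were higher and 1 lower under TPA, beside 23.2% and 22.8% of all genes. Neutrophil markers summed to 209 CPM in KO and 115 CPM in WT skin under FA+TPA, 434 CPM in KO and 980 CPM in WT skin under TPA, and between 35.4 and 46.8 CPM in vehicle skin. All 5 tested, Csf3r, Cxcr2, S100a8, S100a9 and Mmp9, rose under TPA, beside 23.2% of all genes. Which cells carried this RNA was not tested. The part of these cells in the levels of Tslp, Crlf2 and Il7r was not tested.

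**Figure D5:**
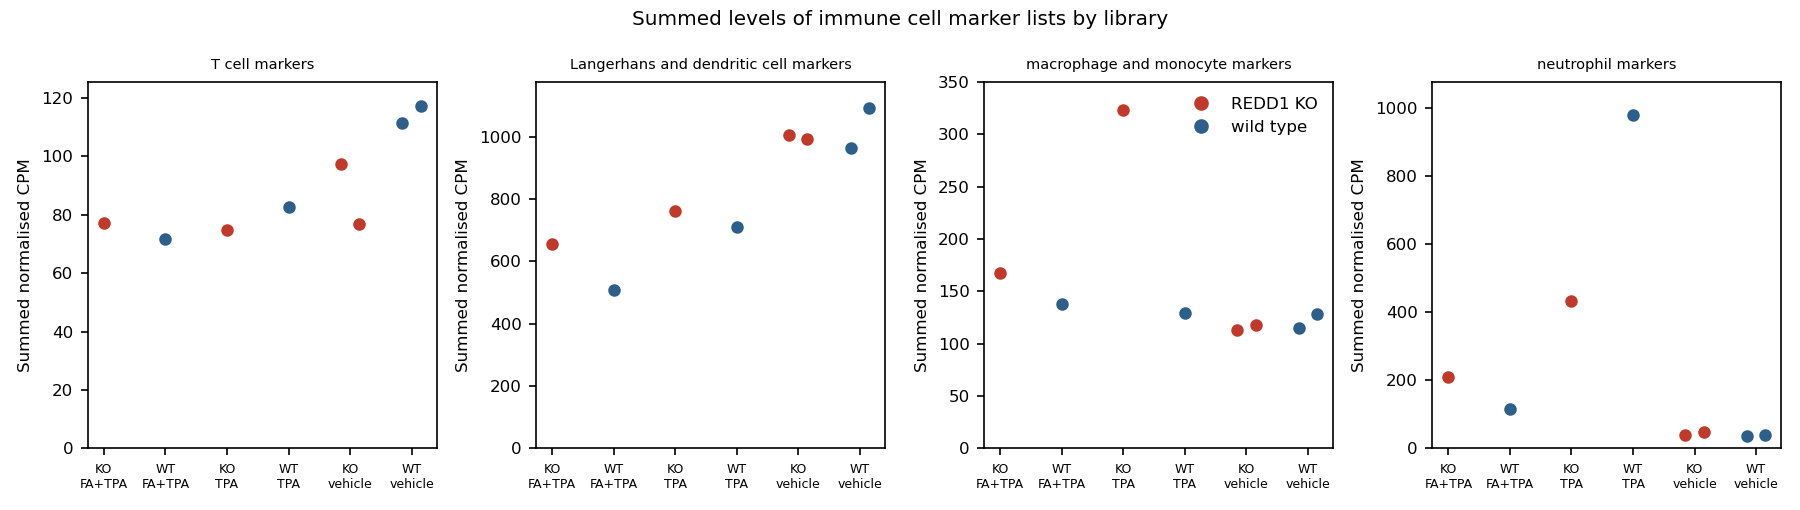
Summed normalised CPM (vertical axes, from 0) of the marker lists of T cells, Langerhans and dendritic cells, macrophages and monocytes, and neutrophils, by group (horizontal axes); each point is 1 library. Neutrophil markers reach 434 and 980 CPM under TPA, while the treated libraries lie within or below the vehicle range for T cell markers and below it for Langerhans cell markers.

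Mast cell and basophil markers summed to between 2.23 and 5.43 CPM, and 3 of 8 were tested, of which Mcpt4, a mast cell protease, was lower under TPA at -2.53 ± 0.77 (edgeR adjusted p = 0.0202). Eosinophil markers summed to between 0.848 and 2.74 CPM, and 2 of 6 were tested, Siglecf at -1.39 ± 0.69 and Ear2 at 1.65 ± 0.70 under TPA (edgeR adjusted p = 0.125 and 0.0758). B cell markers summed to between 0.227 and 0.700 CPM, with 1 to 3 of 5 at 0 in each library and none tested. Skeletal muscle markers, a sign of tissue below the epidermis, summed to 107 CPM in KO and 97.0 CPM in WT skin under FA+TPA, 31.6 CPM in KO and 16.6 CPM in WT skin under TPA, and 168 and 50.8 CPM in KO against 19.4 and 4.97 CPM in WT vehicle skin. In vehicle skin 4 of 6 muscle markers were higher in KO and none lower, beside 1.44% and 0.727% of all genes. The part of muscle tissue in the difference of Il7r was not tested.

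Among 12971 genes, those whose log2 CPM followed each member most closely over the 8 libraries were ranked by Pearson's r. This measure takes no account of the size of a change and reflects the treatment and genotype groups that the libraries share. For Tslp they were Fanca at 0.994, Ndufaf4 at 0.993, Pomgnt1 at 0.992, Hax1 at 0.988 and Rps6 at 0.988. For Crlf2 they were Nap1l1 at 0.996, H2afz at 0.995, Pgp at 0.990, St3gal1 at 0.989 and Pak1ip1 at 0.989. For Il7r the closest were Zfp786 at 0.962, Galc at 0.959, Adssl1 at 0.943, Cacna2d1 at 0.943 and Tmprss2 at 0.941. Rps6 and H2afz have near-identical copies in the genome, and their counts are uncertain. Fanca rose by 1.34 on the log2 scale under TPA against 3.68 for Tslp, so the likeness is one of shape.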

How the data were processed

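Total RNA of scraped epidermis was sequenced in 8 libraries. The submitters' processing notes name Trim Galore, STAR and HTSeq and the build mm10; their versions, the annotation and the strand setting are not stated there. The deposited files hold raw read counts per Ensembl gene, which the authors had not normalised. Symbols and exon lengths came from GENCODE M21 on the same assembly, which matched 54165 identifiers and left 67 unmatched.

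The tests used edgeR 4.0.16 under R 4.3.3 (quasi-likelihood F test, TMM, filterByExpr by treatment, minimum count 10). Treatments, and KO against WT over all treatments, came from an additive fit of genotype and treatment (4 residual degrees of freedom). KO against WT in vehicle skin and the interactions used 1 mean per group (2 residual degrees of freedom, all from vehicle skin). SE is the absolute log2 fold change over the square root of F. CPM used the tested genes' library sizes and TMM factors; RPKM is CPM per kb of exons. Vehicle replicates exceeded sampling noise in their differences (chi-square over its degrees of freedom 12.4 in KO and 27.6 in WT). The fits were also run on simulated counts, whose spread was taken from the fit with 1 mean per group. Such counts cannot show whether single treated libraries vary like the vehicle pairs.

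The members and gene lists were chosen with earlier results of these data known. Named are the members and Ddit4, the 5 nearest genes to each member by Pearson's r among genes averaging 0 or more in log2 CPM (names of an identifier only, Gm plus digits or Rik left out), up to 4 list genes with the smallest p per comparison, and Il7, Il2rg, Stat5a, Stat5b, Jak1, Jak2, Vdr, Rxra, Nr3c1, Il33, Ccl17 and Ccl22. Untested list genes, Il4, Il13 and marker genes were named after their values were seen. Alternatives were RLE scaling, library size only, no filter, a minimum count of 50, limma-voom (limma 3.58.1), DESeq2 1.42.0, 1 mean per group, removal of Gm26917, each library left out, and vehicle libraries alone with or without a replicate block.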

Additional observations from a re-analysis of the deposited data

How the results depend on the processing

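Across the alternatives run, 277 values of single genes kept their direction and their side of the threshold, 20 lost a call, 1 gained one and 15 changed sign, and 84 counts of pathway genes stayed within 1.5 times while 21 did not. The rise of Tslp kept both under all 16 alternatives for TPA against vehicle (3.46 to 3.81 on the log2 scale) and for FA+TPA against vehicle (2.19 to 2.54), as did that of Crlf2 under TPA (0.91 to 1.24). With library size only, the median of all genes moved to -0.25 for TPA against vehicle and to -0.23 for FA+TPA against vehicle, and called genes split into 2846 higher and 6432 lower for TPA. In that setting Il7r turned to -0.18 for TPA and -0.025 for FA+TPA against vehicle, and Tslp to 0.077 in the interaction with TPA and -0.13 in that with FA. For Crlf2 with FA+TPA set against vehicle, the call was lost with library size only (0.34, adjusted p = 0.192), with DESeq2 (0.55) and with 1 mean per group (0.54, adjusted p = 0.0530), and libraries left out gave 0.27 to 0.81. For Il7r in KO against WT over all treatments, the call was lost with 1 mean per group (0.46), and libraries left out gave 0.42 to 0.58. In vehicle skin Il7r passed without WT vehicle replicate 2 (0.61, adjusted p = 0.0475), with a range of 0.47 to 0.61 over libraries left out. Leaving out 1 library gave -1.35 to -1.23 for Tslp with FA+TPA set against TPA. Signs that turned when 1 library was left out, none of them called, were Il7r for TPA (-0.046 to 0.15), for FA+TPA against TPA (-0.058 to 0.33) and for FA+TPA against vehicle (-0.0027 to 0.38), and Crlf2 in KO against WT over all treatments (-0.068 to 0.16) and in vehicle skin (-0.30 to 0.048). In the interaction with TPA they were Tslp (-0.66 to 0.32) and Crlf2 (-0.053 to 0.31). The cause was not tested.

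The number of pathway genes called ran over libraries left out between 9 and 27 for FA+TPA against TPA (9 without the KO or the WT FA+TPA library and 15 without the WT TPA library), between 18 and 31 for FA+TPA against vehicle (18 without either FA+TPA library), between 1 and 3 for KO against WT over all treatments, between 1 and 7 in vehicle skin, and between 0 and 2 and 0 and 1 in the interactions with TPA and FA. It was 7 with no low-count filter for KO against WT over all treatments, and 0 with a minimum count of 50 in vehicle skin. The vehicle replicate numbers did not pair the libraries (correlation of deviations -0.06 over 19251 genes). With the replicate block in the vehicle libraries alone, 2 pathway genes were called, Il7r stood at 0.56 (adjusted p = 0.158) and Crlf2 at -0.10, and Tslp did not pass the low-count filter there. Leaving out a treated library leaves no value for that interaction. With 7 to 21 counts of Tslp per vehicle library, its KO to WT ratio in vehicle skin is limited by depth.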
